A study of Mus musculus with 140 samples.

Results

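The genes described here are 10 transcripts known as targets or mediators of glucocorticoids: Tsc22d3, Sgk1, Cebpd, Cebpb, Fkbp5, Zbtb16, Nfkbia, Rhob, Tcim and the receptor gene Nr3c1. They were chosen with earlier results of these data known, and matched by symbol through Ensembl identifiers of the GRCm38 annotation. All 10 were present among the 11461 genes measured. Counts of the list set beside shares of all genes are therefore a description, not a test of the list. RNA came from gastrocnemius, a calf muscle of mainly fast fibres, of male C57B6/J mice aged 10 to 11 weeks, kept in 12 h of light (from ZT0) and 12 h of darkness with free access to food. Mice ran on a treadmill for 1 h from ZT3, in the early rest phase, or from ZT15, in the early active phase. Their sedentary controls, called sham mice here, spent the same 1 h on a stationary treadmill. Muscle was taken under isoflurane 0, 4, 8, 12, 16 and 20 h later, which gave 24 groups of phase, treatment and hour. All but 3 of the 140 labelled samples were analysed; 18 groups held 6 libraries, 5 held 5, and 1, taken right after rest-phase exercise, held 4. The labels number replicates without saying that each is a separate mouse, so p-values measure the spread between these libraries. Every group had been on a treadmill within a day, and no mice that had not been handled were part of the groups analysed.

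Glucocorticoids are adrenal steroids that are secreted with a daily rhythm and in bursts under stress. They bind the receptor encoded by Nr3c1, which then enters the nucleus and acts on genes through palindromic response elements or through other transcription factors. In skeletal muscle they are known for favouring protein breakdown and for restraining glucose uptake. Fkbp5 encodes a co-chaperone that lowers the hormone affinity of the receptor and so closes a feedback loop. Tsc22d3 encodes GILZ, an anti-inflammatory regulator, and Nfkbia encodes an inhibitor that holds NF-kB in the cytoplasm. Cebpb and Cebpd encode leucine zipper transcription factors of the C/EBP family, and Zbtb16 encodes the zinc finger factor PLZF. Sgk1 encodes a serum- and glucocorticoid-regulated kinase, Rhob a small GTPase, and Tcim a protein named as a transcriptional and immune response regulator. Several of these genes are also known targets of growth factor and stress signals.

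Promoter windows were searched for letters like those of a receptor site. RefSeq windows of the build GRCm38.p6, from 250 bases before to 50 bases after a start, were at hand for 6 of the genes: 6 starts of Sgk1, 3 of Tsc22d3, and 1 each of Cebpb, Fkbp5, Nfkbia and Rhob. Searched were the palindromic glucocorticoid response element, written GNACA and TGTNC with 3 bases between them, the hexamer AGAACA of a single arm of that palindrome on either strand, and the E-box CACGTG, which is its own reverse complement and is bound by the core clock factors. The palindrome was found in 1 of the 13 windows, that of Sgk1 at chr10:21993640-21993939 on the plus strand, and in 0.475% of all 32851 windows. The hexamer was found in 4 of the 13 and in 18.97% of all, and the E-box in 2 of the 13 and in 7.15% of all. Below stand the Sgk1 window, the Tsc22d3 window with the hexamer (chrX:140600473-140600772, minus strand) and the Fkbp5 window with the E-box (chr17:28486100-28486399, minus strand), each 5′ to 3′ on its gene's strand. Capitals mark every match of the 3 motifs. In Sgk1 the palindrome, -188 to -176 from the start, overlaps a hexamer at each of its ends, and a further hexamer overlaps an E-box.
Sgk1: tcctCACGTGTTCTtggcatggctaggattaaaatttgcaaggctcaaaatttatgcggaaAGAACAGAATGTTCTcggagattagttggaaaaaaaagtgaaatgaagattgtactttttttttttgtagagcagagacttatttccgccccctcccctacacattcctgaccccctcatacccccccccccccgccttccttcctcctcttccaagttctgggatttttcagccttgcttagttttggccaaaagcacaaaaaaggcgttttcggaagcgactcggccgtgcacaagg
Tsc22d3: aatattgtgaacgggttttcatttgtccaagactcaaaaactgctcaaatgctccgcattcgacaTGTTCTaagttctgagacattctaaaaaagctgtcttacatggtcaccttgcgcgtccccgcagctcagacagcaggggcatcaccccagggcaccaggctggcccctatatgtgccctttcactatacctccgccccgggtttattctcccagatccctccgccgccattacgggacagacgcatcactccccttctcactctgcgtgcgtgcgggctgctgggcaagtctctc
Fkbp5: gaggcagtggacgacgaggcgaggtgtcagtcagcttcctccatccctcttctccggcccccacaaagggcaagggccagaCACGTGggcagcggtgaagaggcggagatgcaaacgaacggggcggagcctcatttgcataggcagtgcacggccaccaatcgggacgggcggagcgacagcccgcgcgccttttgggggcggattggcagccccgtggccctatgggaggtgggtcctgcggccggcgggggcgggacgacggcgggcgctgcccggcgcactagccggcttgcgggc
A match is a string of letters, not a measured binding site, and its absence from a window says nothing of sites elsewhere.

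In GRCm38, Tsc22d3 (ENSMUSG00000031431) spans chrX:140539528-140600659 on the minus strand, Sgk1 (ENSMUSG00000019970) spans chr10:21882184-21999903 on the plus strand, Cebpd (ENSMUSG00000071637) spans chr16:15887286-15891031 on the plus strand, Rhob (ENSMUSG00000054364) spans chr12:8497661-8500009 on the minus strand, Tcim (ENSMUSG00000056313) spans chr8:24437180-24438984 on the minus strand, Cebpb (ENSMUSG00000056501) spans chr2:167688915-167690418 on the plus strand, Nfkbia (ENSMUSG00000021025) spans chr12:55489410-55492647 on the minus strand, Fkbp5 (ENSMUSG00000024222) spans chr17:28399094-28517527 on the minus strand, and Zbtb16 (ENSMUSG00000066687) spans chr9:48654297-48836222 on the minus strand. Nr3c1 lies on chromosome 18. All are annotated as protein coding, and the values count reads over their exons.

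Levels are given as deposited, on a scale of reads per M, where M stands for mega, of library size after the authors' scaling. The reads recovered from them came to 2.19 M to 27.6 M per library (median 11.0 M), and no library had fewer than 14 reads for any of the 10 genes (Cebpb). Divided by exon length, the mean level over all libraries was highest for Tsc22d3, at 68.6 per kb, ahead of Sgk1 (29.9), Rhob (16.2) and Nr3c1 (12.1). Nfkbia (8.57), Tcim (8.09), Cebpb (7.09), Zbtb16 (6.47) and Cebpd (4.94) lay close together on the same scale, and Fkbp5 was lowest at 2.94 per kb. All 6 muscle fibre markers and all markers listed for adipocytes, endothelium, macrophages, fibroblasts and red blood cells were among the rows. Of 5 lymphocyte markers only Ptprc was measured, and of 4 neutrophil markers none was among the genes measured. In whole muscle, fewer cells of a type and less RNA per cell cannot be told apart. Each library also has a transcript-length slope, fitted across genes between how far its log2 values lie from the overall mean and log2 exon length, which ran from -0.29 to 0.41. Within groups, the levels of Zbtb16 (r = 0.85), Nr3c1 (0.84), Cebpb (0.68) and Fkbp5 (0.68) followed this slope over all libraries. Tcim (-0.71), Cebpd (-0.49) and Tsc22d3 (-0.46) ran against it, and Nfkbia, Sgk1 and Rhob lay between -0.18 and 0.18. The points of these correlations share the depth and length bias of a library, and the slope therefore stands beside the results below. Exons of Cebpb, Cebpd and Tcim overlap exons of Tmem189, Spidr and Gm26714 on the other strand by 312, 562 and 337 bases. The strand setting of the counting is not given in the sources used here, so reads in those stretches cannot be assigned with certainty.

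Directly after exercise in the rest phase, Cebpb, Nfkbia and Rhob were higher than in sham mice of the same arm and clock time (ZT4), by 0.87 to 1.26 on the log2 scale, where 1 is a doubling. A log2 fold change here is that of the value + 0.5, from a limma fit to all libraries and genes, and a gene passed at an adjusted p (Benjamini-Hochberg over all genes) under 0.05. Cebpb, whose factor drives acute phase and metabolic genes, had values of 23.9, 28.6, 15.3 and 14.1 in the 4 exercised libraries, against 8.72, 6.79, 7.30, 8.24 and 8.42 in the 5 sham libraries. The exercised libraries all stood above the sham ones, and the log2 fold change was 1.26 ± 0.30 (SE; limma, adjusted p = 0.017). Nfkbia had 23.3, 26.4, 25.5 and 16.9 after exercise, against 14.1, 11.03, 12.8, 13.98 and 9.86 after sham, again without overlap (0.87 ± 0.21, limma adjusted p = 0.026). For Rhob the values were 95.8, 100.5, 97.02 and 67.7 after exercise, against 38.3, 58.8, 47.3, 48.5 and 41.1 after sham (0.94 ± 0.23, limma adjusted p = 0.027). These 3 of 10 genes passed the test, all higher after exercise, where 0.349% of all 11461 genes passed and 0.332% passed as higher. Groups that did not overlap, with exercise higher, were found for 8 of the 10 and for 12.7% of all genes. The median change of the 10 was 0.72 log2 units and that of all genes 0.01.

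The other members of the list did not pass at this hour. Fkbp5 had 30.1, 33.3, 25.3 and 27.2 in exercised mice, against 8.91, 8.12, 15.4, 21.01 and 11.9 in sham mice; the groups did not overlap, and the change was 1.19 ± 0.34 (adjusted p = 0.12, limma). Tsc22d3 had 462, 518, 496 and 440.5 in exercised mice, against 342, 392, 273, 389 and 266 in sham mice (0.54 ± 0.19, limma adjusted p = 0.30). Both genes were thus above every sham library without reaching the threshold. Sgk1 had 239, 298, 244 and 192 after exercise, against 187, 181, 146.4, 186 and 135.6 after sham (0.54 ± 0.17), also apart and also short of it. Cebpd had 54.4, 58.9, 25.4 and 32.5 after exercise, against 23.5, 16.97, 14.1, 28.7 and 20.6 after sham, and here 1 exercised library fell among the sham ones (0.98 ± 0.34, limma adjusted p = 0.30). The changes of Zbtb16 (0.57 ± 0.29) and the receptor gene Nr3c1 (0.41 ± 0.19) were positive too, and that of Tcim was -0.03 ± 0.28. The mean length slope was -0.0064 ± 0.03 (SD, n = 4) in the exercised and -0.18 ± 0.06 (n = 5) in the sham libraries. With the slope as a covariate, 5 of the 10 passed: Cebpb, Nfkbia, Rhob, Cebpd (1.25) and Tsc22d3 (0.67). The changes of Zbtb16 and Nr3c1 were then 0.18 and 0.17. The 5 red blood cell markers summed to 485 to 823 in exercised and 970.4 to 1367 in sham libraries and the 5 fibroblast markers to 948 to 1289.8 and 1228 to 1552; no cell type marker passed in limma or edgeR. At an unadjusted p under 0.05 stood 2 fibre markers, Myh4 (1.12 ± 0.43) and Ckm (0.43 ± 0.21), and the leukocyte marker Ptprc, where 15% of all genes did. Ptprc had 3.81 to 5.44 in exercised and 6.88 to 9.38 in sham libraries. The part of these markers in the results was not tested.

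The calls at this hour rested on few libraries. Without exercised replicate 1, or without exercised replicate 2, none of the 10 passed, and 1 passed without exercised replicate 5, sham replicate 2 or sham replicate 6. Cebpb lost its call without exercised replicate 1 or 2 or sham replicate 2, Nfkbia also without exercised replicate 5 or sham replicate 6, and Rhob without exercised replicate 1, 2 or 5 or sham replicate 1, 4 or 6. The log2 changes stayed positive in these fits, at 1.04 to 1.44 for Cebpb. A fit on these 9 libraries alone called 9 of the 10, and 3653 of all genes.

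Directly after exercise in the active phase (ZT16), Rhob was the gene of the list that passed. Its values were 76.6 at the lowest, 105.9 at the median and 179.5 at the highest of 6 exercised libraries, against 38.1 at the lowest, 57.4 at the median and 72.6 at the highest of 6 sham libraries. All exercised libraries stood above all sham ones, at 0.92 ± 0.20 (limma adjusted p = 0.0018), and the call held in each of the 18 fits that left out 1 library or 1 replicate number. This was 1 of 10 genes, where 1.18% of all genes passed. Cebpb ranged 15.99 to 33.2 (median 25.3) in exercised and 11.5 to 20.2 (median 15.2) in sham libraries, and its change of 0.69 ± 0.25 had an adjusted p of 0.15 in limma. Tsc22d3 ranged 497 to 800.4 (median 553) after exercise and 438 to 683 (median 538) after sham, so the groups overlapped widely (0.14 ± 0.16). Cebpd (0.07 ± 0.29) and Tcim (-0.09 ± 0.24) lay near 0, and the changes of Sgk1, Nfkbia, Nr3c1, Fkbp5 and Zbtb16 lay between 0.28 and 0.48 without passing. The mean length slope was -0.0096 ± 0.19 (SD) in the exercised and -0.16 ± 0.08 in the sham libraries. With the slope as a covariate Rhob still passed (0.98). The changes of Cebpb, Nr3c1, Fkbp5 and Zbtb16 were then 0.42, 0.23, 0.15 and 0.15, and those of Tsc22d3, Cebpd and Tcim 0.24, 0.29 and 0.16. Whether exercise acted differently in the 2 phases was asked with an interaction term. None of the 10 passed it at any hour or jointly (limma adjusted p = 0.9996 jointly for each, edgeR also 0 at each hour), and at an unadjusted p under 0.05 stood 2 of the 60 tests, or 3.33%, against 2.26% over all genes.

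**Figure D1:**
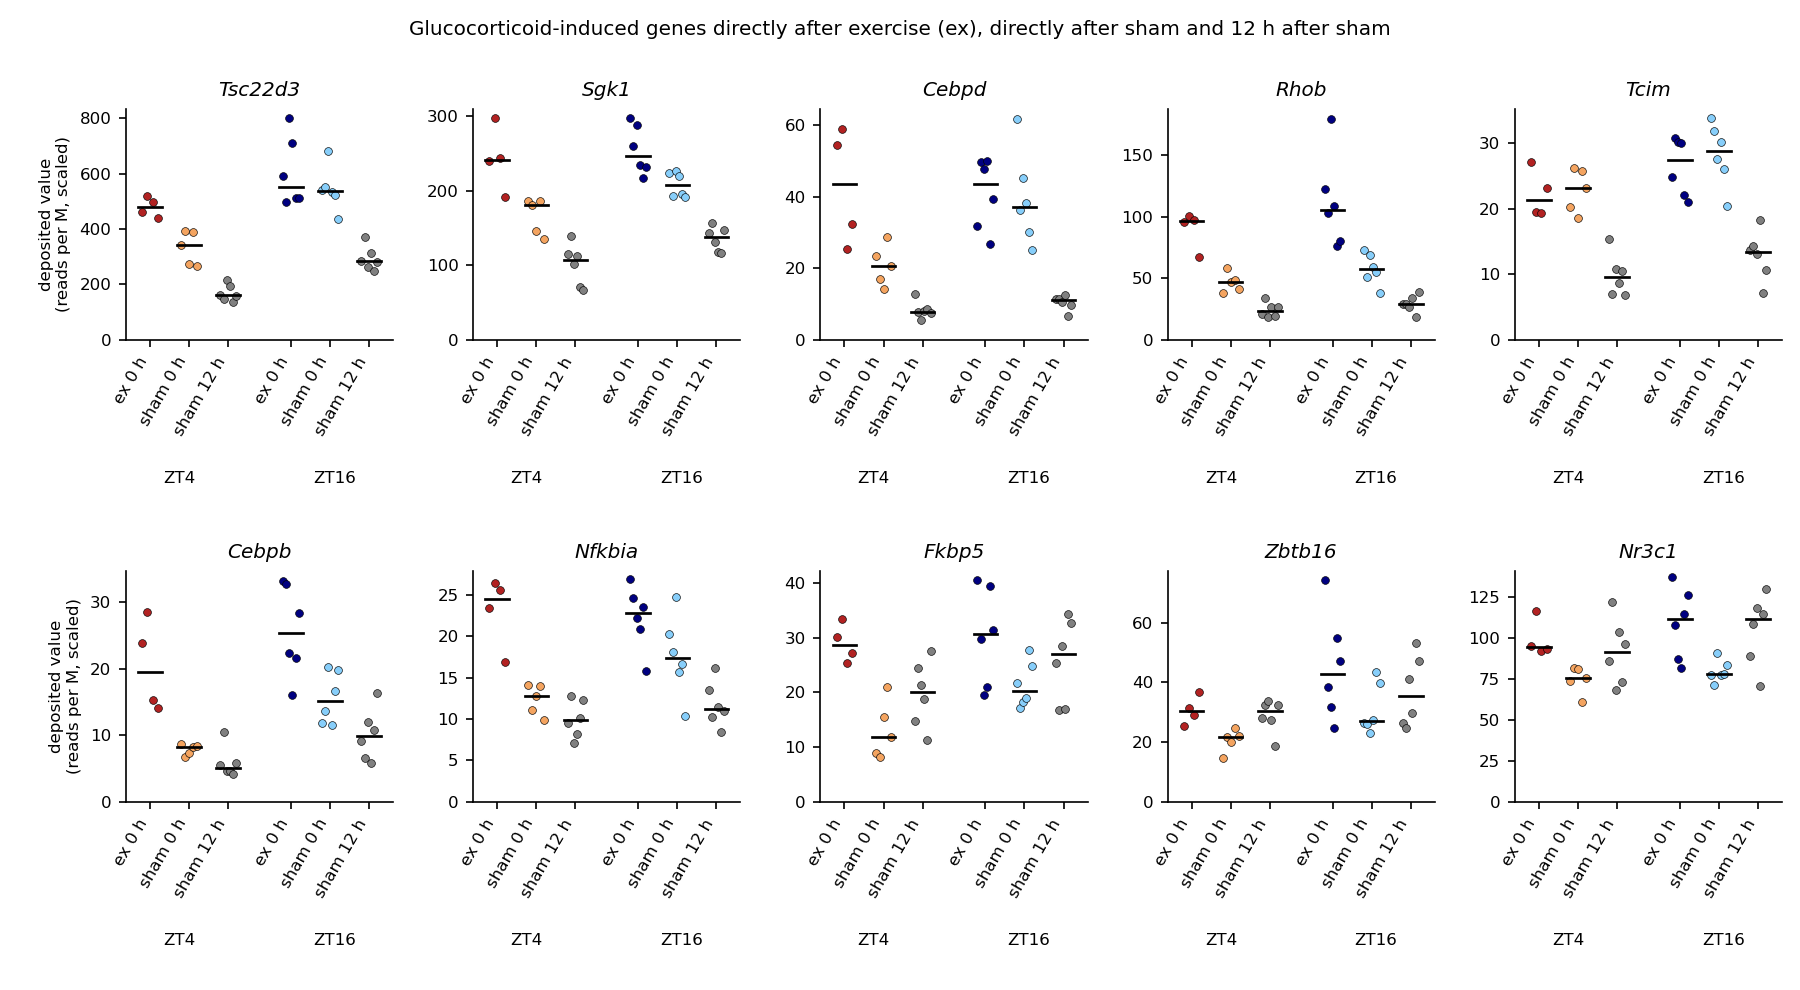
Deposited values (reads per M of scaled library size, linear axis from 0) of the 10 genes at ZT4 and ZT16 in mice taken directly after exercise (ex 0 h), directly after sham (sham 0 h) and 12 h after sham in the other arm (sham 12 h). Points are libraries and bars are group medians; for Tsc22d3, Cebpd, Rhob and Tcim the sham 0 h libraries stand above the sham 12 h libraries at ZT4, whereas for Fkbp5, Zbtb16 and Nr3c1 the sham 0 h medians are the lowest of the 3 at both times.

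A contrast averaged over both phases, added after the values had been seen, raises the number of libraries behind the exercise effect at 0 h. By it 8 of the 10 genes were higher in exercised than in sham mice, where 17.5% of all genes passed, 14.1% as higher. Cebpb (0.98 ± 0.20, limma adjusted p = 0.00035) and Rhob (0.93 ± 0.15, adjusted p = 3.7e-06) had the largest changes, followed by Fkbp5 (0.83 ± 0.22) and Nfkbia (0.61 ± 0.14). Zbtb16 (0.53), Nr3c1 (0.42), Sgk1 (0.41) and Tsc22d3 (0.34) differed by less. Of these 8, Cebpb, Nfkbia and Rhob passed in all 6 fits that left out 1 replicate number, and Tsc22d3 in none. Cebpd (0.53 ± 0.23, adjusted p = 0.078) and Tcim (-0.06 ± 0.18) did not pass. With the length slope as a covariate 5 of the 8 calls held, and Fkbp5 (0.49, limma adjusted p = 0.081), Nr3c1 (0.20, 0.082) and Zbtb16 (0.17, 0.45) did not pass. For Nr3c1 and Zbtb16 the sham reference at 0 h was itself low. Mean log2 levels of Nr3c1 after exercise, sham 0 h and sham 12 h were 6.63, 6.22 and 6.49 at ZT4, and 6.75, 6.32 and 6.69 at ZT16. Those of Zbtb16 were 4.95, 4.38 and 4.85 at ZT4, and 5.42, 4.94 and 5.17 at ZT16. Among the cell type markers the fibre gene Myh4 passed in this contrast, as higher after exercise (0.97 ± 0.28), and its part in the result was not tested.

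From 4 h to 20 h after the treadmill no gene of the list passed in either phase, by limma or by edgeR. Of all genes, 0.0524% passed at 12 h after rest-phase exercise (0.0436% higher, 0.00873% lower), 0.0175% at 4 h after either, 0.00873% at 8 h after rest-phase and at 12 h after active-phase exercise, and none elsewhere. At an unadjusted p under 0.05 stood 8 of these 100 tests (8%), against 5.10% over all genes. The 8 h comparison of the active phase depended on 1 library. Without replicate 6 of its exercised mice 3 of the 10 passed, and without replicate 6 of every group 5 passed and 3207 of all genes. Tested over all 12 contrasts together, exercise changed Fkbp5 (limma F test, adjusted p = 0.0082) and Rhob (adjusted p = 0.021), which is 2 of 10 where 0.890% of all genes passed. In the rest phase the log2 changes of the feedback gene Fkbp5 were 1.19 at 0 h, then 0.73, 0.96, 0.21, 0.49 and 0.44 at the 5 later times, each with an SE of 0.29 to 0.34. In the active phase they were 0.46, 0.11, 0.72, 0.57, 0.32 and 0.07 in the same order. All 12 were positive, as they were for 23 of the 11461 genes (0.201%); singling this out followed from its values. At 8 h in the rest phase Fkbp5 ranged 30.5 to 51.9 (median 36.95) in 6 exercised libraries and had values of 16.05, 21.9, 15.9, 19.7 and 23.8 in the 5 sham libraries, with no overlap (0.314% of all genes); the change of 0.96 ± 0.31 did not pass (limma adjusted p = 1.00). Rhob had changes between -0.17 and 0.29 at every hour from 4 h on. Without replicate 1, 2 or 4 of every group neither gene passed the joint test. The adjusted p ran from 0.0019 to 0.64 for Fkbp5 and from 0.033 to 0.71 for Rhob over the 6 fits that left out 1 replicate number. With the length slope in the model it was 1.7e-06 for Fkbp5 and 0.0030 for Rhob. When the 6 libraries that correlated below 0.9 with their own group were left out, 4 of the 10 passed the joint test, and 257 of all genes.

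**Figure D2:**
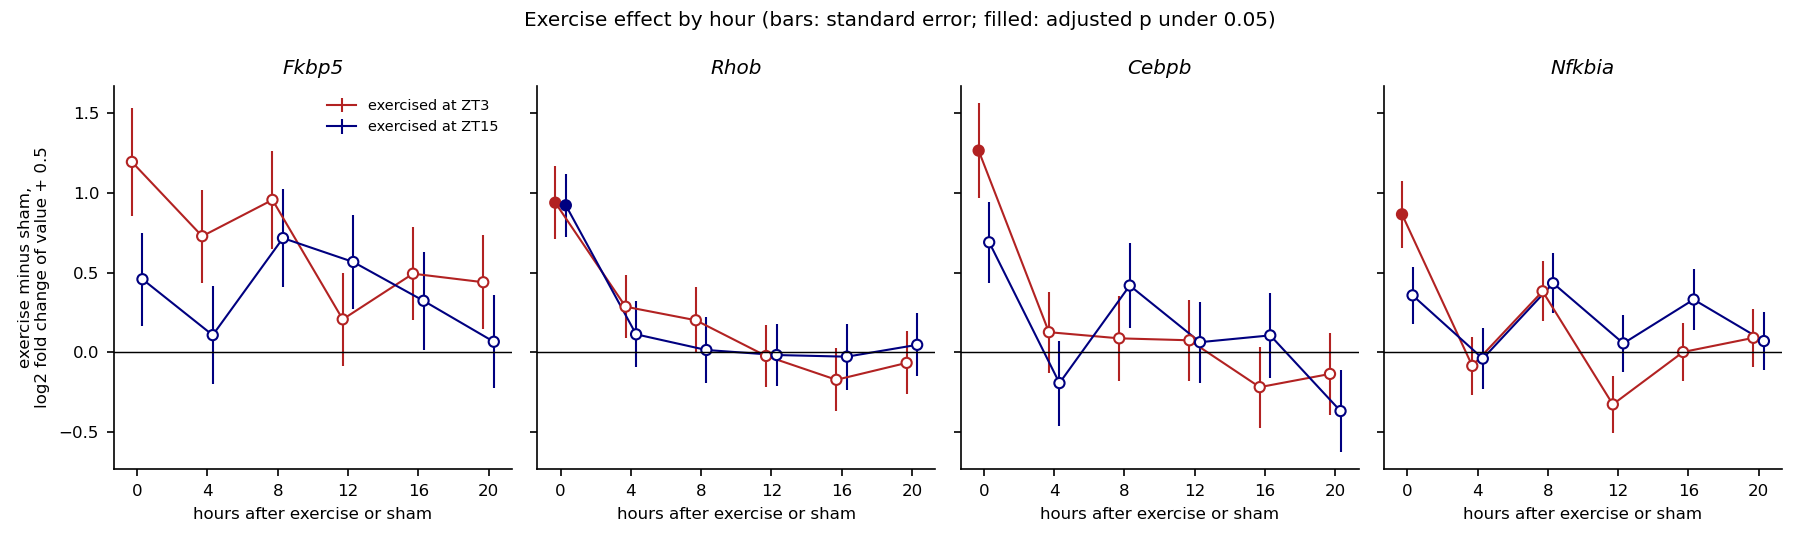
Log2 fold change of value + 0.5, exercise minus sham, for Fkbp5, Rhob, Cebpb and Nfkbia at 6 hours after exercise at ZT3 (red) or ZT15 (blue); bars are standard errors of the fit, and filled points passed an adjusted p of 0.05. The rest-phase points of Rhob, Cebpb and Nfkbia at 0 h and the active-phase point of Rhob at 0 h are filled, and all 12 points of Fkbp5 lie above 0.

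The sham arms give a second comparison, since mice taken directly after sham in one arm share their clock time with mice taken 12 h after sham in the other arm. At ZT4 these were the rest-phase sham mice at 0 h (n = 5) against the active-phase sham mice at 12 h (n = 6), and at ZT16 the active-phase sham mice at 0 h against the rest-phase sham mice at 12 h (n = 6 each). In mice that had just stood on a stationary treadmill, Tsc22d3, Sgk1, Rhob and Tcim were higher at both clock times, and Cebpd was higher at ZT16. That is 4 of 10 genes at ZT4, where 0.166% of all genes passed, and 5 of 10 at ZT16, where 0.707% passed; each of them was higher in the recently handled mice. Groups that did not overlap, recently handled mice higher, were found for 4 of 10 genes at ZT4, where 2.69% of all genes showed this, and for 4 of 10 at ZT16, where 0.672% did. The median change of the 10 genes was 0.61 at ZT4 and 0.63 at ZT16 on the log2 scale, and that of all genes -0.0024 and -0.04.

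Tsc22d3, the GILZ gene, had values of 342, 392, 273, 389 and 266 directly after sham at ZT4, against 137.1 at the lowest, 161 at the median and 217 at the highest 12 h after sham. Every recently handled library stood above every other (0.97 ± 0.17, limma adjusted p = 0.00025). At ZT16 it had 438 at the lowest, 538 at the median and 683 at the highest directly after sham, against 249.7 at the lowest, 283 at the median and 371 at the highest 12 h after sham, again with no overlap (0.89 ± 0.16, limma adjusted p = 0.00033). The size of the difference was thus close at both clock times, while the levels on both sides were higher at ZT16. Cebpd, a factor that is known to rise early in inflammation, had 23.5, 16.97, 14.1, 28.7 and 20.6 directly after sham at ZT4, against 5.62 at the lowest, 7.88 at the median and 12.9 at the highest 12 h after sham. Those libraries did not overlap, yet the change of 1.25 ± 0.31 did not pass (limma adjusted p = 0.053). With the length slope as a covariate this change was 0.91 (limma adjusted p = 0.28). It was called in 3 of 10 alternative settings and in 2 of 17 fits that left out 1 library or 1 replicate number. At ZT16 Cebpd had 25.1 at the lowest, 37.2 at the median and 61.7 at the highest directly after sham, against 6.61 at the lowest, 11.1 at the median and 12.6 at the highest 12 h after sham. Its change of 1.83 ± 0.29 was the largest of the list (limma adjusted p = 2.0e-05).

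Among the signalling genes, Sgk1 had 187, 181, 146.4, 186 and 135.6 directly after sham at ZT4, against 67.4 at the lowest, 107.1 at the median and 139.5 at the highest 12 h after sham. The lowest recently handled library fell inside the range of the other group (0.76 ± 0.16, limma adjusted p = 0.0056). At ZT16 the groups were apart, with 192 at the lowest, 207 at the median and 226 at the highest directly after sham, against 116.6 at the lowest, 137.4 at the median and 157 at the highest 12 h after (0.62 ± 0.15, limma adjusted p = 0.017). Rhob had 38.3, 58.8, 47.3, 48.5 and 41.1 directly after sham at ZT4, against 18.9 at the lowest, 23.9 at the median and 34.3 at the highest 12 h after sham (0.93 ± 0.21, limma adjusted p = 0.014). At ZT16 it ranged 38.1 to 72.6 (median 57.4) directly after and 18.5 to 39.1 (median 29.1) 12 h after sham (0.96 ± 0.20, limma adjusted p = 0.0032). Rhob was therefore the gene of the list that passed in all 4 comparisons at 0 h, by changes between 0.92 and 0.96. Tcim had 20.3, 26.2, 18.5, 25.7 and 23.1 directly after sham at ZT4, against 6.85 at the lowest, 9.60 at the median and 15.3 at the highest 12 h after (1.21 ± 0.25, limma adjusted p = 0.0056). At ZT16 it ranged 20.4 to 33.9 (median 28.8) directly after and 7.17 to 18.4 (median 13.4) 12 h after sham, with no overlap (1.14 ± 0.24, limma adjusted p = 0.0037).

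For the receptor, its feedback gene and Zbtb16 neither of these sham comparisons passed, and the values directly after sham lay low rather than high. Nr3c1 had 73.6, 81.3, 80.8, 61.2 and 75.8 directly after sham at ZT4, against 68.03 at the lowest, 91.02 at the median and 121.8 at the highest 12 h after sham, and its changes were -0.27 ± 0.17 at ZT4 and -0.37 ± 0.16 at ZT16, neither past the threshold. Fkbp5 had 8.91, 8.12, 15.4, 21.01 and 11.9 directly after sham at ZT4, against 11.3 at the lowest, 20.1 at the median and 27.6 at the highest 12 h after sham, with wide overlap. Its changes were -0.60 ± 0.31 at ZT4 and -0.23 ± 0.29 at ZT16. Zbtb16 had 14.7, 21.6, 19.96, 24.7 and 21.9 directly after sham at ZT4, against 18.6 at the lowest, 30.3 at the median and 33.7 at the highest 12 h after sham, with changes of -0.47 ± 0.27 at ZT4 and -0.23 ± 0.25 at ZT16. With the length slope as a covariate the changes of Fkbp5, Zbtb16 and Nr3c1 moved to -0.13, 0.03 and 0.04 at ZT4, and to 0.13, 0.15 and -0.14 at ZT16. Of these 6 negative changes, 4 thus turned positive.

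Cebpb and Nfkbia, which passed after exercise in the rest phase, did not pass in the sham arms. Cebpb had 8.72, 6.79, 7.30, 8.24 and 8.42 directly after sham at ZT4, against 4.23 at the lowest, 5.07 at the median and 10.5 at the highest 12 h after sham. Only the highest of the 12 h libraries reached the level of the recently handled ones. Nfkbia had 14.1, 11.03, 12.8, 13.98 and 9.86 directly after sham at ZT4, against 7.14 at the lowest, 9.85 at the median and 12.8 at the highest 12 h after sham, and the groups overlapped. The changes at ZT4 and ZT16 of Cebpb (0.46 ± 0.27 and 0.65 ± 0.25) and Nfkbia (0.31 ± 0.19 and 0.54 ± 0.18) were positive. Cebpb passed at both clock times with the slope as a covariate (0.86 and 0.95). Tsc22d3, Sgk1, Rhob and Tcim passed at both clock times with that covariate too, at 0.80, 0.82, 0.85 and 0.82 for ZT4.

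Library properties and cell type markers were set beside these comparisons, and their part in the results was not tested beyond the length slope. The mean length slope was -0.18 ± 0.06 directly after and 0.04 ± 0.18 12 h after sham at ZT4, and -0.16 ± 0.08 directly after and 0.01 ± 0.18 12 h after sham at ZT16 (SD). The summed values of the 6 fibre markers ran from 100830.0 to 166360.0 directly after and from 81839 to 130170.0 12 h after sham at ZT4, and from 123980.0 to 201930.0 and from 97654 to 124030.0 at ZT16, where Ckm, muscle creatine kinase, was the marker that passed, as higher directly after sham. The 5 endothelial markers summed to 56.02 to 63.7 and 64.3 to 195 at ZT4 and to 43.6 to 68.8 and 50.7 to 126.4 at ZT16, recently handled mice given first. The sums of the 5 fibroblast markers were 1228 to 1552 and 1441 to 2156 at ZT4 and 1116 to 1666 and 683 to 1970.3 at ZT16, and those of the 5 red blood cell markers were 970.4 to 1367 and 179.7 to 1365 at ZT4 and 708 to 1486 and 316 to 1342 at ZT16. No marker of these 3 cell types, of adipocytes or of macrophages passed at either time, in limma or edgeR. At an unadjusted p under 0.05 stood 2 fibre, 2 endothelial, 1 macrophage, 1 fibroblast and 1 red blood cell marker at ZT4, where 22.3% of all genes did. At ZT16 these were 2 fibre markers, Ckm among them, 1 endothelial and 1 adipocyte marker, where 17.6% of all genes did. The median change of the 6 fibre markers was 0.45 at ZT4 and 0.48 at ZT16. At ZT4 the number of listed genes that passed was 2 without replicate 5 of the 12 h sham mice. With 1 replicate number left out of every group, this number was 0 for replicate 5 and 2 for replicate 2 or replicate 6. Among single libraries at ZT4, Rhob lost its call without sham 0 h replicate 2 or 5 or sham 12 h replicate 3 or 5, and Sgk1 without sham 12 h replicate 5 or 6. At ZT16, Sgk1 lost its call without sham 0 h replicate 1 or sham 12 h replicate 3 or 5, the other 4 genes kept theirs without any 1 library, and 2 genes passed without replicate 5 of every group.

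**Figure D3:**
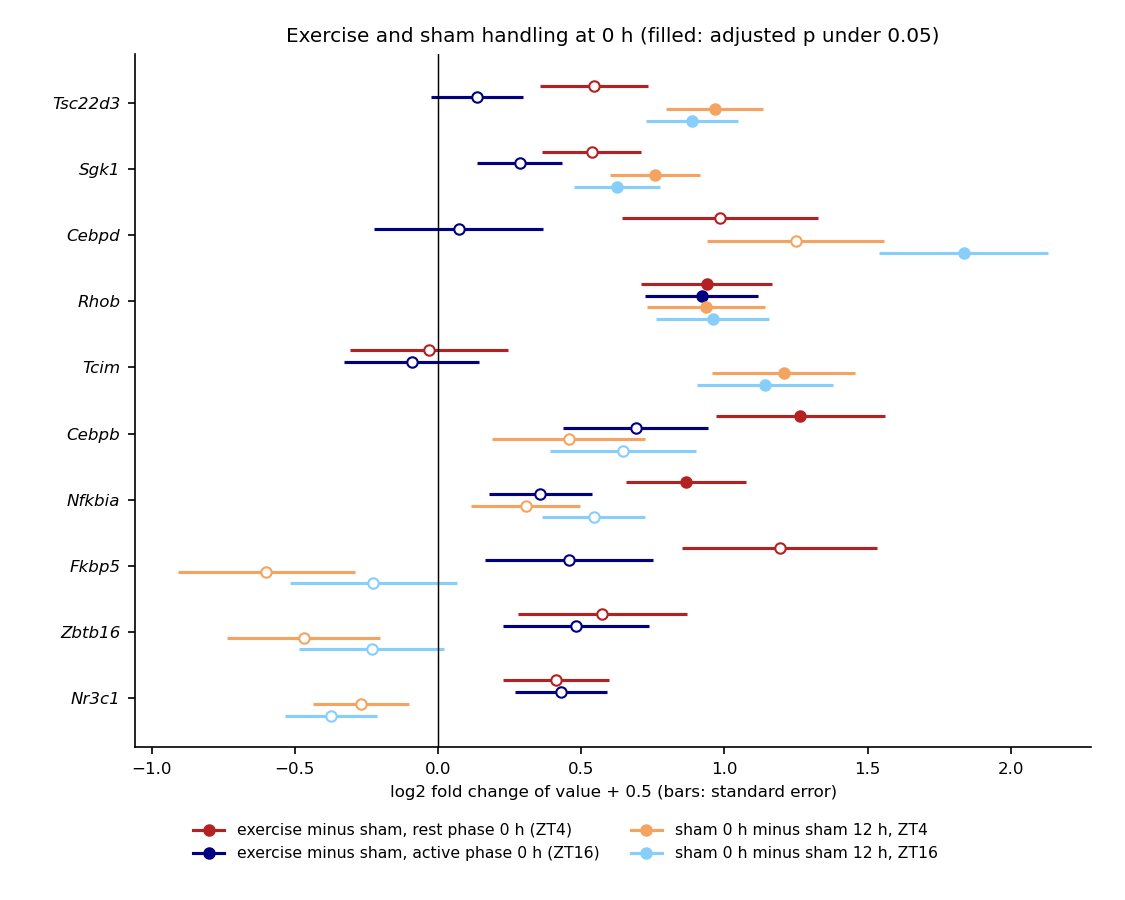
Log2 fold change of value + 0.5 with its standard error for the 10 genes in 4 comparisons: exercise minus sham at 0 h in the rest phase (red) and the active phase (dark blue), and sham at 0 h minus sham at 12 h at ZT4 (orange) and ZT16 (light blue). Filled points passed an adjusted p of 0.05; Rhob is filled in all 4, Tsc22d3, Sgk1 and Tcim in the sham comparisons, Cebpd in the sham comparison at ZT16, and Cebpb and Nfkbia in the rest-phase exercise comparison.

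At the other 4 clock times, where the sham arms differed by 4 h against 16 h or 8 h against 20 h since handling, no gene of the list passed in limma or edgeR. At an unadjusted p under 0.05 stood 6 of these 40 tests (15%), against 6.50% over all genes. Tsc22d3 was higher in the recently handled arm at all 6 clock times, with changes of 0.28 at ZT8, 0.17 at ZT12, 0.21 at ZT20 and 0.41 at ZT0, each with an SE of 0.16 or 0.17. Sgk1 by comparison had -0.03, 0.12, 0.03 and -0.31 at those times. Larger differences, also without passing, were found for other genes. Zbtb16 had its largest sham-arm change at ZT20 (0.68 ± 0.25). At ZT8 its mean log2 levels were 5.29 at 4 h and 4.66 at 16 h after sham. Those of Cebpd at ZT0 were 3.88 at 8 h and 3.13 at 20 h after sham. At ZT20 they ran the other way, with 3.53 at 4 h and 4.09 at 16 h. Over all 6 clock times together the sham arms differed for Tsc22d3 (limma F test, adjusted p = 1.9e-07), Cebpd (7.9e-07), Tcim (2.4e-05), Rhob (0.00025) and Sgk1 (0.00041). This was 5 of 10 genes, where 0.768% of all genes passed. With the length slope as a covariate Cebpb (0.00022) and Zbtb16 (0.00025) passed as well. Tsc22d3, Cebpd, Tcim and Rhob kept an adjusted p under 0.05 without any 1 replicate number, and Sgk1 in 5 of those 6 fits, with adjusted p-values of 0.00088 to 0.074. Of the cell type markers, the fibre gene Ckm (limma F test, adjusted p = 0.0074) and the adipocyte gene Lep (0.021) passed the joint test of the sham arms. Lep was also called lower in the recently handled arm at ZT12 by limma. The part of these markers in the result was not tested.

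The mean of the comparisons at ZT4 and ZT16 was added after the values had been seen; it holds each arm on both sides and so cancels a constant difference between the arms. It was positive past the threshold for 7 of the 10 genes and negative for Nr3c1, where 13.6% of all genes passed, 5.37% as higher and 8.18% as lower. Cebpd changed by 1.54 ± 0.21, Tcim by 1.17 ± 0.17, Rhob by 0.95 ± 0.14, Tsc22d3 by 0.93 ± 0.12 and Sgk1 by 0.69 ± 0.11. Those 5 passed in all 6 fits that left out 1 replicate number, and also when the length slope was a covariate. Cebpb (0.55 ± 0.18, limma adjusted p = 0.041), Nfkbia (0.42 ± 0.13, 0.031) and Nr3c1 (-0.32 ± 0.12, 0.049) passed in 0, 1 and 2 of them. With the slope, the change of Nr3c1 was -0.053 (limma adjusted p = 0.89), Nfkbia did not pass (0.060), and the change of Cebpb was 0.91. Of the cell type markers, the endothelial gene Kdr was lower (-1.06 ± 0.30) and the fibre gene Ckm higher (0.70 ± 0.13) directly after sham, and edgeR called 3 endothelial, 2 fibre and 1 red blood cell marker; their part in the result was not tested. The corresponding means for 4 h against 16 h and for 8 h against 20 h since sham called none of the 10, in limma or in edgeR, and 4 and 2 of the 10 had an unadjusted p under 0.05, where 2.23% and 27.7% of all genes did. A direct test of the sham effect minus the exercise effect at 0 h shares the sham 0 h libraries between its terms. It was positive for Tcim, Cebpd and Tsc22d3 and negative for Fkbp5, Zbtb16 and Nr3c1, where 33.2% of all genes passed, and it called none of the 10 with the length slope as a covariate. Markers passed in this test too, with Cdh5 and Kdr (endothelium) and Myh4 (fibres) negative and Dpt (fibroblasts), Hba-a2 (red blood cells) and Tnni2 (fibres) positive, and their part in it was not tested.

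Clock time was tested in sham mice as the mean of both arms at 6 times of day, which balances the time since handling between times 12 h apart. Among all 6 times it is not balanced, since mice taken directly after sham stand at ZT4 and ZT16 alone, so the joint test holds clock time and time since handling together. It passed for 6 of the 10 genes, where 3.66% of all genes passed: Tsc22d3 (limma F test, adjusted p = 1.3e-11), Sgk1 (1.5e-07), Cebpb (4.9e-05), Cebpd (0.00019), Nfkbia (0.0014) and Tcim (0.0033). Rhob (0.11), Zbtb16 (0.11), Fkbp5 (0.057) and Nr3c1 (0.34) did not pass; Fkbp5 and Zbtb16 passed with the length slope as a covariate. A rhythm with a period of 24 h sets each time against the one 12 h away. When it replaced the 6 free times, Fkbp5 passed (adjusted p = 0.020), Tcim did not (0.28), and the other calls held, where 4.41% of all genes passed. The sham mean of Tcim was high at ZT16 (4.26 log2 units), ZT12 (4.02) and ZT4 (3.92). Of the markers, 4 of 5 for adipocytes, 1 of 5 for fibroblasts and 1 of 6 for fibres passed the joint test as well, and their part in the result was not tested.

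Of the 6 genes that passed over the 6 times, Cebpb, Cebpd and Nfkbia had their highest sham mean (log2 scale) at ZT12 and Tsc22d3, Sgk1 and Tcim at ZT16; Fkbp5, Zbtb16 and Nr3c1, which did not pass, had it at ZT20. The median of Tsc22d3 over both sham arms was 222 at ZT0, 217 at ZT4, 209 at ZT8, 302 at ZT12, 404 at ZT16 and 304 at ZT20. For Cebpb the medians were 6.65 at ZT0, 6.79 at ZT4, 8.96 at ZT8, 11.97 at ZT12, 11.9 at ZT16 and 10.9 at ZT20, so its level was low through the light phase. Nfkbia had 10.02 at ZT0, 11.03 at ZT4, 11.5 at ZT8, 16.1 at ZT12, 14.6 at ZT16 and 12.7 at ZT20, with its highest median at the end of the light phase. The fitted cosine peaked between ZT13.6 (Nfkbia) and ZT18.8 (Fkbp5) over the 10 genes, of which 6 passed the test of this rhythm. Its amplitude, on the log2 scale from mean to peak, was 0.49 ± 0.08 for Cebpb, 0.46 ± 0.09 for Cebpd, 0.44 ± 0.05 for Tsc22d3 and 0.31 ± 0.04 for Sgk1. Nr3c1 had the smallest, 0.098 ± 0.05. Taken arm by arm the amplitudes differed, a difference that was not tested. In mice handled at ZT15 it was 0.76 for Tsc22d3, 0.56 for Sgk1 and 0.78 for Cebpd, and in mice handled at ZT3 it was 0.18, 0.10 and 0.21 for the same genes. The fitted peaks of Rhob and Tcim, which did not pass the test of this rhythm, differed by arm as well. For Rhob the peak was at ZT15.8 in mice handled at ZT15 and at ZT3.6 in mice handled at ZT3. For Tcim it was at ZT14.25 and at ZT3.1 in the same order. These amplitudes and peaks describe 1 arm each, in which clock time and time since handling cannot be told apart.

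**Figure D4:**
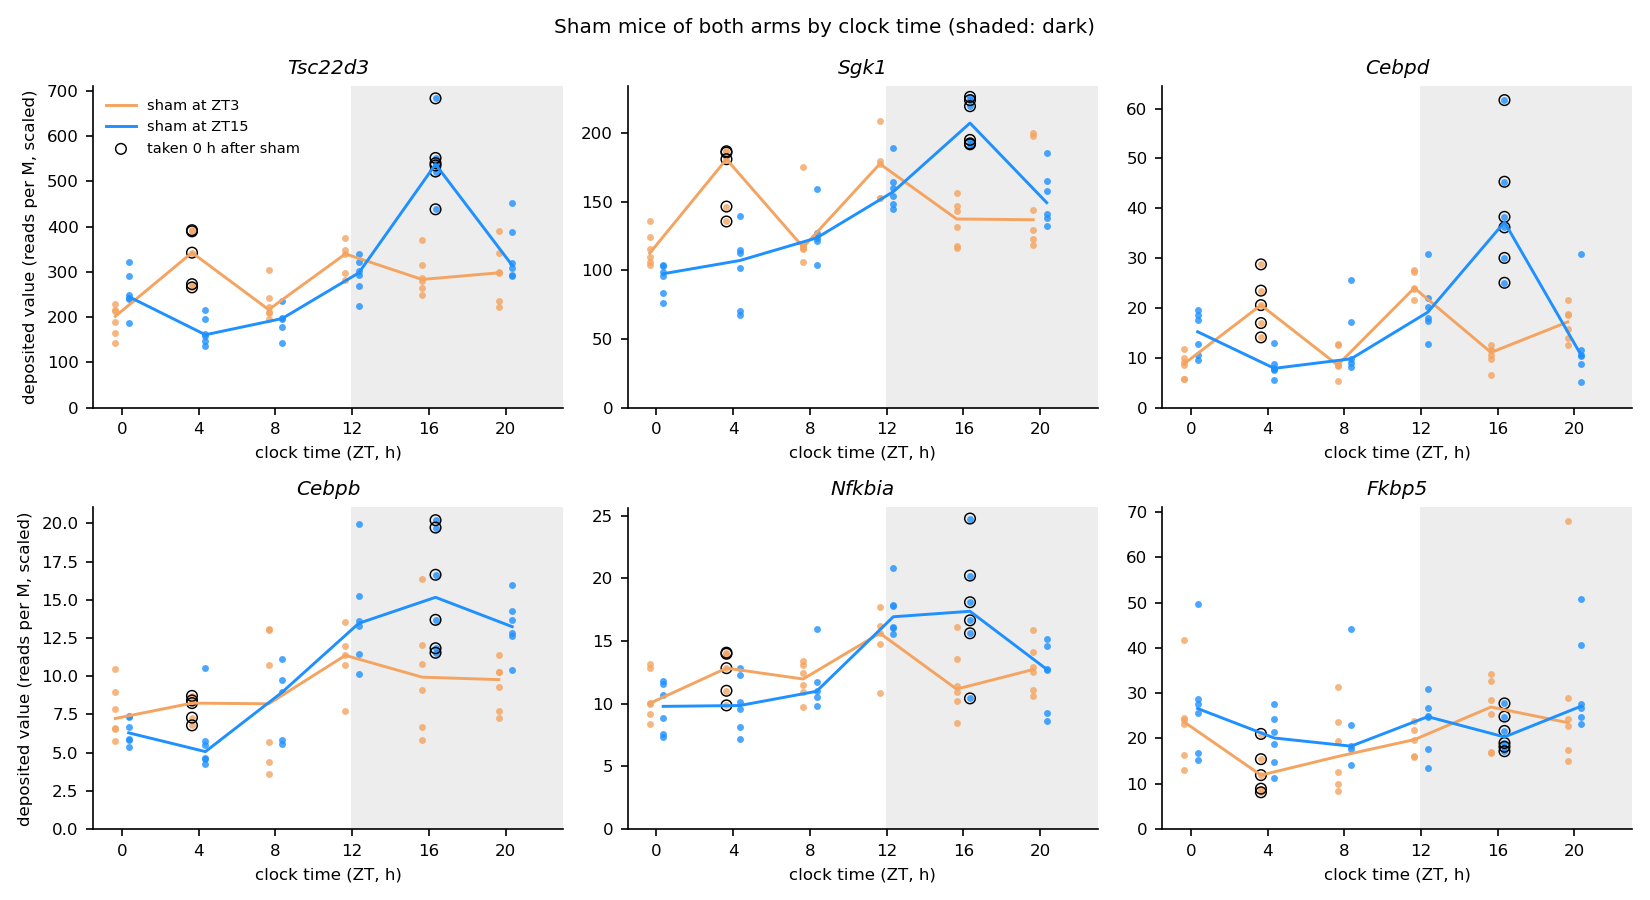
Deposited values (reads per M of scaled library size) of 6 genes in sham mice by clock time, with mice handled at ZT3 in orange and at ZT15 in blue; points are libraries, lines join the medians of an arm, black rings mark mice taken directly after sham, and shading marks darkness. For Tsc22d3, Sgk1 and Cebpd the ringed groups stand out from the other arm at ZT4 and ZT16, while the arms lie close together at ZT12.

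Contrasts between clock times 12 h apart, added after the values had been seen, hold the same hours since handling on both sides when the arms are averaged. Between ZT16 and ZT4, Cebpb was higher at ZT16 by 0.82 ± 0.18 (limma adjusted p = 0.0040), Tsc22d3 by 0.76 ± 0.12 (2.0e-06) and Sgk1 by 0.39 ± 0.11 (0.043), which is 3 of 10 where 1.08% of all genes passed. Sgk1 lost this call in 5 of the 6 fits without 1 replicate number. Between ZT20 and ZT8 only Tsc22d3 passed, higher at ZT20 by 0.60 ± 0.12 (0.00040, 1.27% of all genes), and 5 of 10 passed with the length slope as a covariate. In that contrast the adipocyte marker Plin1 (-0.88 ± 0.23) and the fibroblast marker Col3a1 (-0.74 ± 0.20) were lower at ZT20. All 5 adipocyte markers had an unadjusted p under 0.05, where 11.5% of all genes did, and their median change was -0.75. The part of these markers in the result was not tested. No cell type marker passed in the other 2 contrasts, in limma or edgeR. At an unadjusted p under 0.05 stood 3 adipocyte, 2 endothelial, 1 macrophage and 1 fibroblast marker between ZT16 and ZT4, where 7.03% of all genes did. Between ZT12 and ZT0 these were 2 adipocyte and 1 red blood cell marker, where 7.08% of all genes did. Between ZT12 and ZT0, 5 of 10 were higher at ZT12, where 1.15% of all genes passed. They were Cebpd (0.99 ± 0.21), Cebpb (0.77 ± 0.18), Sgk1 (0.68 ± 0.11), Nfkbia (0.66 ± 0.13) and Tsc22d3 (0.49 ± 0.12). For Sgk1 the libraries of both arms at ZT12 all stood above those at ZT0, with 144.5 as the lowest of 11 at ZT12 and 135.9 as the highest of 12 at ZT0. Rhob, which moved with exercise and with handling, differed by 0.16 ± 0.14 in this contrast and passed in none of the 3.

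Set side by side, clock time, handling arm and exercise carried different shares of the variation of each gene. The sum of squares of the log2 values over all libraries was split, in this order, into clock time, arm at equal clock time, exercise and the spread within groups. The arm term averages exercised and sham libraries, so an exercise effect that the arms do not share at a clock time falls partly into it. Clock time comes first, and libraries taken at 0 h stand at ZT4 and ZT16 alone. Handling and exercise effects at 0 h therefore fall partly into the clock share, as do handling effects in the sham libraries alone. Clock time, arm and exercise took 38.5%, 37.96% and 2.95% for Tsc22d3, 26.4%, 39.1% and 7.20% for Sgk1 and 27.1%, 37.1% and 4.63% for Cebpd. In these genes, exercise, taken last, had the smallest of the 3 shares. They took 16.5%, 46.2% and 10.3% for Rhob, 24.4%, 31.6% and 3.45% for Tcim, 25.8%, 21.9% and 11.5% for Cebpb and 21.7%, 26.1% and 13.1% for Nfkbia. Exercise had the largest of the 3 shares in Fkbp5 (10.5%, 4.14% and 24.4%) and Nr3c1 (6.12%, 3.72% and 15.7%), but it has 12 degrees of freedom, against 5 for clock time and 6 for arm. Per degree of freedom, relative to the spread within groups, clock time and exercise stood at 3.90 and 3.77 in Fkbp5 and at 1.86 and 1.98 in Nr3c1. Zbtb16 (7.57%, 16.4% and 9.34%) kept 66.7% within groups. Over all genes the median shares were 5.26% for clock time, 6.39% for arm, 9.72% for exercise and 77.7% within groups, and over the 10 genes they were 23.01%, 28.9%, 9.80% and 39.9%. The exercise share of Fkbp5 was higher than that of 99.5% of genes, and that of Tsc22d3 higher than that of 1.20%. Such a share is bounded by what clock time and arm take, which is large in Tsc22d3. Per degree of freedom, relative to the spread within groups, exercise stood at 1.35 in Tsc22d3. This was above Zbtb16 (1.32) and Tcim (0.80) and below the other genes of the list. Sgk1 stood at 2.49 on that scale, above Nr3c1, although its exercise share was smaller. In the 69 sham libraries alone, clock time and arm took 46.1% and 34.03% for Tsc22d3, 26.2% and 44.3% for Cebpd, 14.9% and 40.7% for Rhob and 43.5% and 14.3% for Cebpb. The medians over all genes were 9.38% and 12.6%. These shares are a description, and no test was made of them.

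**Figure D5:**
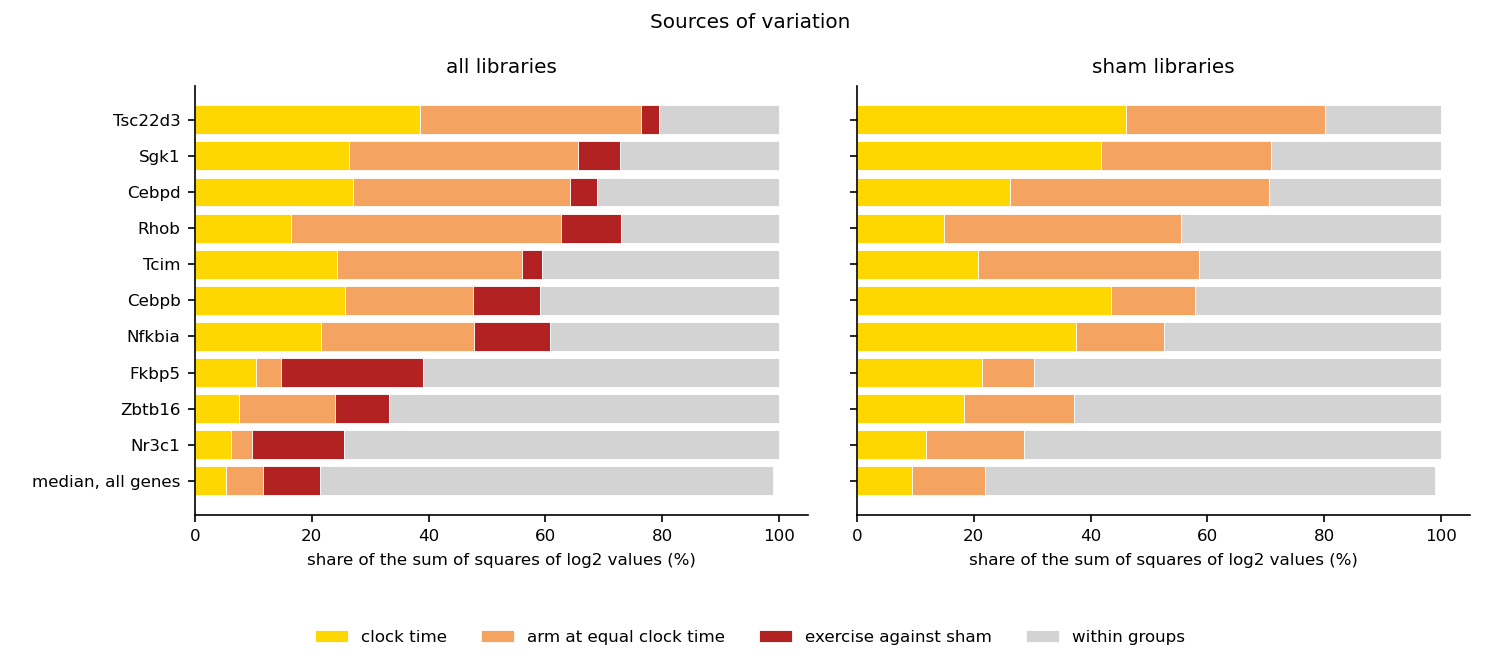
Shares of the sum of squares of log2(value + 0.5), in percent, taken by clock time, arm at equal clock time, exercise against sham and the spread within groups, for the 10 genes and as the medians over all genes, which need not add to 100. The left panel holds all libraries and the right panel the 69 sham libraries; the exercise share is widest in Fkbp5 (24.4%), and the spread within groups is narrowest in Tsc22d3 (20.6%).

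Over the 24 group means, which share their libraries' scaling, the level of Tsc22d3 followed those of Sgk1 (r = 0.88), Cebpb (0.88), Rhob (0.82) and Cebpd (0.79). The closest pair of the list was Cebpb and Sgk1 (r = 0.91). Tsc22d3 and Fkbp5 in contrast had an r of 0.12, and Tsc22d3 and Nr3c1 one of 0.23. The 5 genes outside the list with the pattern most like that of Tsc22d3 were Arrdc3 (r = 0.91), 1700023H06Rik (0.88), Ddit4 (0.83), Slc25a25 (0.83) and Gm11730 (0.82). For Fkbp5 they were Rxrb (0.80), Hbegf (0.80), Vps37c (0.77), Mical2 (0.76) and Acd (0.74). No gene stood in both sets.

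Of 18 genes of the receptor's chaperones, co-regulators and ligand handling, all measured, none passed after exercise at 0 h in either phase or jointly over the 12 contrasts, by limma or edgeR; 4 of them at ZT4 and 6 at ZT16 had an unadjusted p under 0.05, where 15% and 21.7% of all genes did. At ZT16 directly after sham, the chaperone genes Hspa8 (0.59 ± 0.15) and Hsp90ab1 (0.58 ± 0.15) were higher, and at ZT4 Dnajb1 (1.25 ± 0.27), a co-chaperone of Hsp70. The median of the 18 was -0.16 at ZT4 and -0.07 at ZT16. Of 26 further genes known as glucocorticoid targets, a list chosen with results of these data known, 25 were measured. Directly after exercise 9 of the 25 were higher in rest-phase mice and 6 in active-phase mice, and none was lower, where 0.332% and 0.977% of all genes were higher. Ddit4, an inhibitor of mTORC1, changed by 2.86 ± 0.44 in the rest phase, the metallothionein gene Mt1 by 2.42 ± 0.37 and the insulin receptor substrate gene Irs2 by 1.95 ± 0.47. In the active phase Mt1 (2.37 ± 0.31) and Irs2 (2.31 ± 0.41) were higher as well. Directly after sham, 2 of the 25 were higher at ZT4, Ddit4 (1.95 ± 0.40) and the arrestin-domain gene Arrdc2 (1.55 ± 0.27), and 7 at ZT16, where 0.105% and 0.532% of all genes were higher. Those with the largest changes at ZT16 were Ddit4 (3.79 ± 0.38), Arrdc2 (2.05 ± 0.26) and Angptl4 (1.58 ± 0.40), an inhibitor of lipoprotein lipase. Mt1 (0.36 ± 0.33 at ZT4) and Irs2 (-0.38 ± 0.43) did not pass in the sham comparison at ZT4 or at ZT16. Mt1 did pass in the mean of these 2 comparisons, and jointly over the 6 sham contrasts (limma F test, adjusted p = 0.024). The 12 exercise contrasts, the 6 sham contrasts and the 6 clock times were also tested jointly, and 11 of the 25 passed for exercise, 8 for sham arm and 8 for clock time (limma), where 0.890%, 0.768% and 3.66% of all genes passed. EdgeR called 10 and 7 of the 25 after exercise, and 2 and 7 directly after sham.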

How the data were processed

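Total RNA of gastrocnemius was sequenced as paired 100-bp reads from TruSeq Stranded libraries after Ribo-Zero Gold depletion, per the labels' protocols. The submitters' processing notes name STAR 2.5.3a and featureCounts 1.5.2, as well as cutadapt 1.16, FastQC 0.11.5, edgeR 3.2.23 and Trim Galore 0.4.3, with mm10 (GRCm38) as the build. The deposited signal is a gene's reads divided by a scaled library size, 1 file per library; the pattern of low values gave back whole reads for 100% of values (tolerance 0.05), 2.19 M to 27.6 M per library. The files hold 11461 genes.

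Groups came from the labels. In R 4.3.3, limma 3.58.1 (trend, robust) was fitted to log2(value + 0.5) with 24 group means and no covariate, with no further filter on low values; contrasts and joint F tests were adjusted by Benjamini-Hochberg over all genes. For a clock time, sham arms were compared with each other or averaged. Two-sided tests were used throughout. The script was tested on simulated data. Alternatives were RLE size factors, pseudocounts of 0.1 and 2, a mean value of at least 5, edgeR 4.0.16 (quasi-likelihood) on recovered reads, a replicate block, replicate strata, the length slope as a covariate, the contrast's own libraries, and leaving out replicates, libraries, or those correlating below 0.9 with their group. Promoters came from RefSeq tables.

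The 10 genes and all lists were chosen with earlier results of these data known. Every gene of the list is described; of the other lists, genes that passed may be named, up to 5 per list and contrast by size, and the 5 genes closest to Tsc22d3 and to Fkbp5. Replicates 3 and 4 of mice exercised in the rest phase and replicate 3 of their sham mice at 0 h were not analysed here.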

Additional observations from a re-analysis of the deposited data

Results flagged for a closer look

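Single libraries stood apart from the rest of their group, by the gap to the nearest library relative to the range of the group, for 9 of 240 combinations of gene and group; chance gives about 1 in 20, or 12. Cebpb was lowest, at 2.88, in replicate 6 of the active-phase exercised mice at 8 h (nearest 9.23), the library without which members of the list passed at that hour. It was highest, at 10.54, in replicate 2 of the active-phase sham mice at 12 h (nearest 5.77), a library on the 12 h side of the sham comparison at ZT4. Rhob was lowest, at 67.7, in replicate 6 of the rest-phase exercised mice at 0 h (nearest 95.8), still above every sham library of that hour, and highest, at 65.02, in replicate 3 of the active-phase sham mice at 8 h (nearest 33.8). Nr3c1 was highest, at 116.5, in replicate 2 of the rest-phase exercised mice at 0 h (nearest 94.8). Sgk1 was highest, at 175, in replicate 2 of the active-phase exercised mice at 16 h (nearest 127.8), and likewise highest, at 175, in replicate 4 of the rest-phase sham mice at 4 h (nearest 118.6). Zbtb16 was lowest, at 18.6, in replicate 5 of the active-phase sham mice at 12 h (nearest 27.2), and highest, at 49.9, in replicate 6 of the active-phase sham mice at 16 h (nearest 23.9).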

How the results depend on the processing

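The number of the 10 genes that passed moved with several settings. When the length slope was a covariate, the number was 5 at 0 h and 1 at 4 h after rest-phase exercise, 1 in the sham arms at ZT8, 1 in the mean for 4 h against 16 h, 5 between ZT16 and ZT4 (6 with replicate strata added), 5 between ZT20 and ZT8, and 0 for the sham minus exercise effect. Without the libraries of low correlation, 5 passed between ZT20 and ZT8 and 4 in the joint exercise test. With the contrast's own libraries, 9 passed at 0 h and 1 at 8 h after rest-phase exercise.

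Leaving out 1 library or replicate number gave 0 to 4 genes after exercise at 0 h in the rest phase, 1 in every fit in the active phase, 0 to 5 at 8 h in the active phase, 0 to 5 in the sham arms at ZT4 and 2 to 5 at ZT16. For the means over both times it gave 5 to 6 (sham effect), 3 to 7 (exercise effect) and 0 to 6 (their difference), for ZT16 against ZT4 1 to 3 and for ZT12 against ZT0 3 to 5. Joint tests gave 0 to 3 for exercise, 4 to 5 for sham arm and 5 to 7 for clock time. Over all alternatives and leave-outs, the number of all genes that passed ranged from 12 to 3653 after exercise at 0 h in the rest phase (40 as reported), from 56 to 231 in the active phase, from 2 to 33 (19) in the sham arms at ZT4 and from 23 to 173 (81) at ZT16.

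The direction changed in 22 fits, all of values that had not passed. In the active phase at 0 h Cebpd was at -0.00042 with edgeR, -0.0047 without replicate 2, -0.042 without replicate 6 and -0.045 without sham replicate 6. Tcim after exercise at 0 h in the rest phase was at 0.28 with the slope (0.27 with strata) and at -0.17 to 0.081 over the leave-outs; after active-phase exercise it was at 0.16 (0.17). In the sham arms, Nr3c1 at ZT4 was at 0.036 with the slope (0.046 with strata), Zbtb16 at 0.034 (0.018) at ZT4 and 0.15 (0.14) at ZT16, and Fkbp5 at 0.13 (0.12) at ZT16. The cause was not tested. RLE scaling moved the median of all genes by less than 0.1.

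The labels do not say that a replicate number pairs libraries, and the numbers were not treated as pairs in the main fit. Deviations correlated above 0.1 in 36 of 66 possible pairs (median 0.14, range -0.75 to 0.89). Such a spread of correlations cannot decide whether the numbers mark pairs. As a hint from the data, 20 of 66 exercised libraries correlated best with the sham library of their own number, where chance gives 11.5. With the replicate block 3 genes passed at 0 h after rest-phase exercise, 5 and 5 in the sham arms at ZT4 and ZT16, and 3, 5 and 8 in the joint tests of exercise, sham arm and clock time. The lowest read number of any of the 10 genes in a library was 14 (Cebpb), which limits precision there.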
